A study of Mus musculus with 12 samples.

Results

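The proteins of the cytosolic ribosome were followed here through the 178 array probes, for 86 gene names, that the scanner files assign to them. Members were taken by name: Rpl or Rps followed by a digit, Rpsa, and the stalk genes Rplp0, Rplp1 and Rplp2, without the Rps6k kinases and without names marked as pseudogenes. They are 178 of the 39429 gene probes on the array, and 86 of its 31829 gene names. Large-subunit genes had 99 probes for 43 genes, small-subunit genes 63 probes for 30 genes, and the stalk 5 probes for 3 genes. The name rule also took in 10 probes for 9 paralogs, and 1 probe for Rps19bp1, which encodes a protein that binds Rps19 and is not a ribosomal protein. The cells were mouse neural stem cells from the cerebral cortex of E12.5 embryos, kept in culture. A knockdown line stably expressed an shRNA against JMJD3, and a control line stably expressed an shRNA of random sequence. Cells received TGFb at 5 ng/ml, or vehicle, for 2.5 h. This gave 4 groups of 3 samples: knockdown with TGFb, knockdown with vehicle, control with TGFb and control with vehicle. Each condition rests on 1 line, so the effect of the knockdown and other differences between the lines cannot be told apart. Whether samples of a group were separate cultures is not stated, and p-values therefore reflect the spread between samples, which may be technical.

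A cytosolic ribosome is built from a small subunit, which reads the mRNA, and a large subunit, which joins amino acids. Each holds ribosomal RNA and a fixed set of proteins, nearly all present once per ribosome, so their genes are expressed together at high levels in growing cells such as neural progenitors. Many of their mRNAs begin with a C followed by an unbroken run of pyrimidines, the terminal oligopyrimidine or TOP motif, through which the mTOR pathway controls their translation. JMJD3, the product of Kdm6b, removes methyl groups from histone H3, and TGFb is a secreted signalling protein that acts on transcription through Smad proteins.

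The starts of the genes were searched for a C followed by at least 4 bases that are all C or T, on the strand of the gene and beginning within 5 bases of the start that RefSeq annotates (build GRCm38.p6). Of the 64 member genes with a promoter sequence in the RefSeq table, 28 held such a run (43.8%), against 21.2% of all 27025 genes with one. The motif CACGTG, which reads the same on both strands and is bound by Myc with its partner Max, was present in the 300 bases around the start in 6 of the 64 genes (9.38%), against 8.09% of all genes. Starts of members described below that hold the run are shown as examples of it. Each line covers 25 bases before and 25 bases from the annotated start. Capitals mark the pyrimidine run from a C within 5 bases of that start. The base before this C was not restricted, so a longer run may begin further upstream. Pyrimidines directly before the capitals, as in Rpl14, Rpl28 and Rps15a, are in small letters.
Rpl14 at chr9:120571492-120571541, plus strand: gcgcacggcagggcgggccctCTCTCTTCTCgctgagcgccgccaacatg
Rpl27a at chr7:109519170-109519219, plus strand: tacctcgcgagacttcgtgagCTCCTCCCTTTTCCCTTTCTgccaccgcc
Rpl28 at chr7:4792940-4792989, plus strand: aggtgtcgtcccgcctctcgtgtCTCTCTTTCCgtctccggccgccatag
Rps6 at chr4:86857343-86857392, minus strand: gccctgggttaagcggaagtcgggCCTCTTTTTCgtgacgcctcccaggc
Rps15a at chr7:118116123-118116172, minus strand: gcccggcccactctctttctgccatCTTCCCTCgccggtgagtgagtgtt
Rps27 at chr3:90213624-90213673, minus strand: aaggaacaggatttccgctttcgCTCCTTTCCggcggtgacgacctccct
With the brightest probe of each gene, the median difference between knockdown and control with vehicle was -0.19 (log2) for the 28 genes with the run and -0.17 for the 33 without it. Of these genes 12 and 10 fell (limma, adjusted p under 0.05), against 15.5% of all probes. These results use values scaled to the 75th percentile of each array, and the authors' values were not split by the run. The part of the run in the differences was not tested.

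The 75th percentile of signal ran from 3174.6 to 4462.0 units over the 12 arrays. With vehicle it was 4173.9, 4190.5 and 3924.5 in knockdown and 4050.6, 3779.3 and 3520.9 in control. It was thus higher in knockdown on each of slides 1, 2 and 3. With TGFb it was 3174.6, 3906.1 and 4462.0 in knockdown and 3504.9, 3596.1 and 4297.4 in control, which overlap. The part of these levels in the results was not tested. An array had 70.26% to 78.42% of its probes well above background and 0 saturated spots. Precision is limited by having 3 arrays a group. The targeted gene followed the labels. Kdm6b had log2 values, relative to the 75th percentile of the array, of -2.01, -2.12 and -2.01 in knockdown with TGFb and -1.95, -1.90 and -1.96 in knockdown with vehicle. It had -0.67, -0.69 and -0.59 in control with TGFb and -0.84, -0.73 and -0.75 in control with vehicle. All knockdown arrays lay below all control arrays, with differences of -1.40 ± 0.05 (log2, SE) with TGFb and -1.16 ± 0.05 with vehicle (limma, adjusted p = 2.81e-08 and 1.1e-07). All 9 neural stem cell and radial glia markers were well above background on all 12 arrays. Of the 5 microglia markers 2 (Csf1r and Ptprc) were so on all 12 arrays and Aif1 on 0, and of the 4 endothelium markers 3 were so on all 12 and Cdh5 on 0. So were all 4 astrocyte markers, 4 of 5 neuron, 4 of 5 oligodendrocyte lineage and 3 of 5 fibroblast and meninges markers. Being well above background therefore does not tell these cell types apart.

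Of the 178 ribosomal protein probes, 175 were tested, because every array of some group (3 arrays) read them well above background, and 174 were so on all 12 arrays. The 3 that did not pass were the probes of the paralogs Rpl10l and Rpl39l. Values were compared in 2 forms. The first is the log2 processed signal minus the 75th percentile of its array. The second is the authors' table of log2 values, in which all columns share a median of 7.93, as after quantile normalization. Of the 178 probes, 119 list a predicted RefSeq transcript beside their gene, so that near-identical gene copies and pseudogenes cannot be told apart from the named gene. In these bulk samples, fewer cells of a type and less RNA per cell cannot be told apart either.

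With vehicle, ribosomal protein probes were lower in knockdown than in control cells by a small amount that nearly all of them shared. The median over the 175 probes was 5.69, 5.60 and 5.74 on the knockdown arrays, against 5.87, 5.86 and 5.90 on the control arrays. The groups of arrays did not overlap, and their means were 5.68 ± 0.07 in knockdown and 5.88 ± 0.02 in control (SD, n = 3 each). The difference was below 0 for 168 of 175 probes, against 53.3% of all 29972 probes tested, and its median was -0.19, against -0.02 over all probes. In limma's test across all probes, 75 of the 175 (42.9%) fell and 0 rose, at an adjusted p under 0.05. Among all probes, 15.5% fell and 12.8% rose. The 75 probes belong to 48 genes. On 121 of the 175 all knockdown arrays lay below all control arrays, against 23.5% of all probes. None of the called differences reached 1.5-fold (0 probes).

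**Figure D1:**
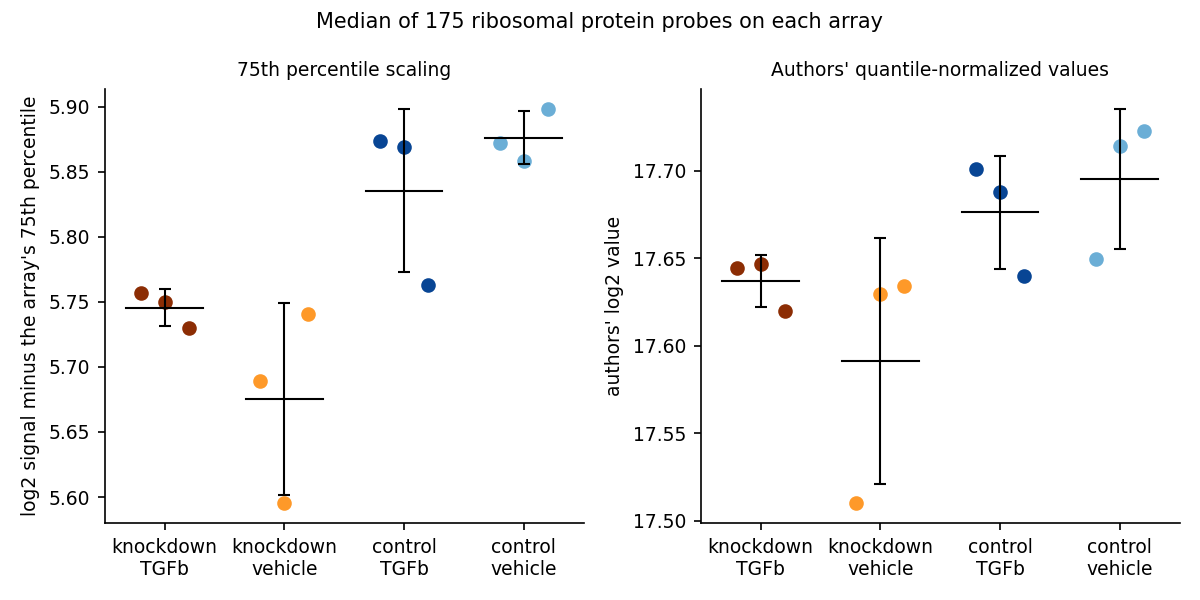
Median of the 175 ribosomal protein probes on each array, by group, in log2 units, with 75th percentile scaling at left and the authors' values at right. Points are arrays, lines are group means and bars are 1 SD (n = 3). With 75th percentile scaling the knockdown arrays with vehicle lie between 5.60 and 5.74 and the control arrays with vehicle between 5.86 and 5.90, and in the authors' values between 17.51 and 17.63 and between 17.65 and 17.72.

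The same comparison gave fewer calls in the authors' values. The median over the 175 probes was 17.51, 17.63 and 17.63 on knockdown arrays with vehicle, against 17.65, 17.71 and 17.72 on control arrays. Of the 175 probes 14 fell (8.0%) and 0 rose, while 10.8% of all probes fell and 10.8% rose, so the share of members that fell was near that of all probes. Still, 153 of the 175 differences were below 0, against 51.2% of all probes, with a median of -0.07 against -0.0045 over all probes. All 14 probes that fell in the authors' values also fell with 75th percentile scaling, and 61 fell only there.

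**Figure D2:**
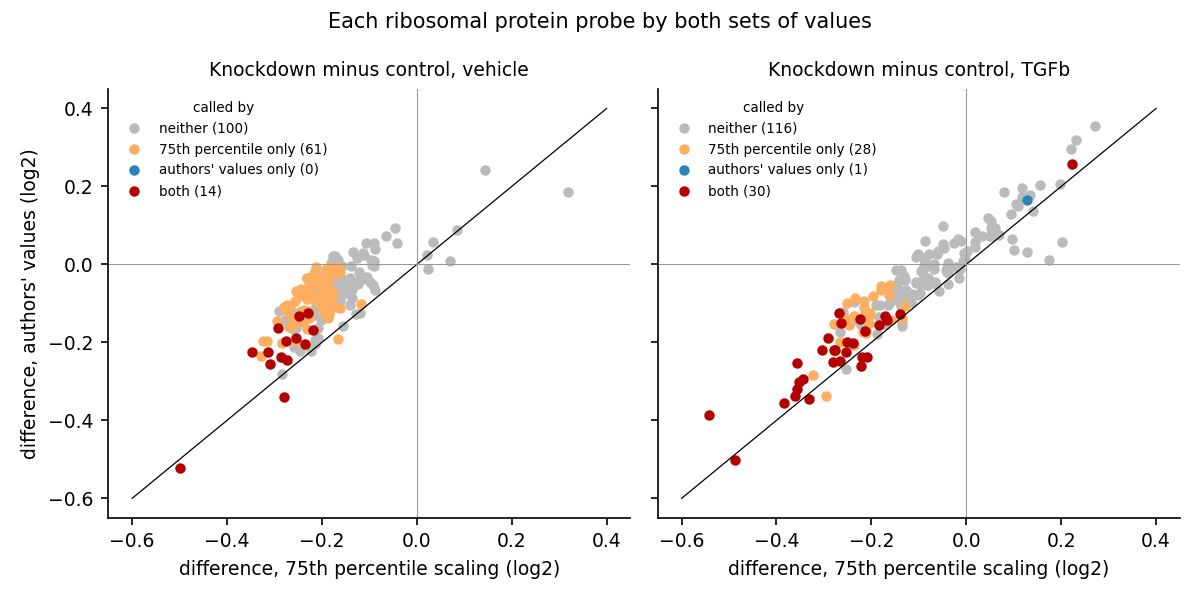
Difference of each of the 175 ribosomal protein probes (log2) with 75th percentile scaling on the horizontal axis and in the authors' values on the vertical axis, for knockdown minus control with vehicle (left) and with TGFb (right). Colours show by which values a probe was called, the diagonal marks equality, and most points lie above it, nearer 0 in the authors' values. Both sets of values called 14 probes with vehicle and 30 with TGFb.

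The difference was also set against signal strength. Of the 175 probes, 139 lay in the brightest twentieth of the 29972 probes. These 139 had a median difference of -0.19 between knockdown and control with vehicle, and the other 1360 probes of that twentieth had -0.13. The authors' values gave -0.07 for the members and -0.01 for the other probes. With 75th percentile scaling 45.3% of the members and 26.3% of the other probes fell, and in the authors' values 6.47% of the members and 4.49% of the other probes. The 36 members below the brightest twentieth had a median of -0.19 with 75th percentile scaling and of -0.13 in the authors' values, and 12 and 5 of them fell. In each of the dimmer twentieths 3.3% to 21.5% of the other probes fell, and 2.2% to 17.9% in the authors' values. The members' median differed little between the bright and the dimmer ones with 75th percentile scaling. In the authors' values it was nearer 0 in the bright ones. The part of signal strength in the result was not tested. Signal here is that of a probe, and it depends on the probe as well as on the transcript.

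**Figure D3:**
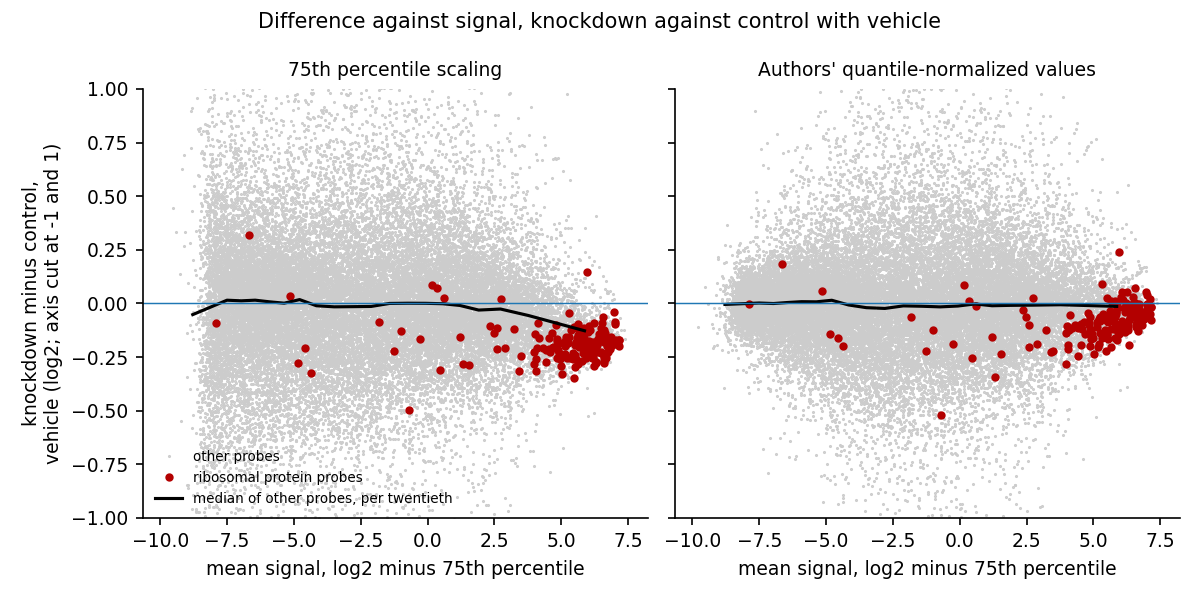
Difference between knockdown and control with vehicle (log2) against the mean signal of each probe (log2, relative to the 75th percentile), with 75th percentile scaling at left and the authors' values at right. The vertical axis is limited to -1 to 1. Red points are ribosomal protein probes, grey points are other probes, and the black line joins the medians of the other probes in twentieths of signal. The line falls to -0.13 in the brightest twentieth at left and is at -0.01 there at right.

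Slides were weighed by setting arrays of 1 slide against each other. The median of the members' differences between knockdown and control with vehicle was -0.18 on slide 1, -0.24 on slide 2 and -0.15 on slide 3 with 75th percentile scaling, with 168, 171 and 161 of 175 probes below 0. The authors' values gave -0.08 on each of these slides (-0.0765, -0.0757 and -0.0757). With slide as a block in limma 126 members fell, at the same median of -0.19, and 38.8% of all probes were called in either direction there, against 28.3% without the block. Markers of other cells moved with the comparison, in both directions. The summed level of the 5 neuron markers was 3.49 to 3.6 (log2) in knockdown with vehicle and 3.37 to 3.47 in control with vehicle. The summed level of the 5 oligodendrocyte lineage markers was 3.58 to 3.68 (log2) in knockdown with vehicle and 3.83 to 3.97 in control with vehicle, with 4 of the 5 of either list well above background on all arrays. Their part in the result was not tested.

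A set of 9 probes fell in knockdown cells under both treatments and in both sets of values. That is 5.14% of the 175, below the 7.71% of all probes that did so, and the count is no result about the members. They were singled out after their values were seen. Among them were probes of Rpsa, Rps12, Rps19, Rpl14, Rpl17, Rpl27a and, with 2 probes, Rpl30. Some of them are shown here as the probes that both sets of values call. Positions are those of the array's annotation on mm9. Where fewer than 60 bases are printed, the bases of the probe are given by number, and capitals mark AATAAA, the usual polyadenylation signal.
Rpsa probe A_52_P372165, chr9:120040967-120041026, plus strand, bases 16 to 45: gattttgtgtcccaggaacaaagttaatgc
Rps12 probe A_55_P1989328, chr10:23505428-23505711, minus strand: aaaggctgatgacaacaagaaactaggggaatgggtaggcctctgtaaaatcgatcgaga
Rps19 probe A_55_P2098471, chr7:25670166-25670225, plus strand: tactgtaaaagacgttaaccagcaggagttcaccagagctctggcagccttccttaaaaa
Rpl14 probe A_51_P232858, chr9:120483689-120483748, plus strand, bases 31 to 60: gttaaccctaacaAATAAAtttcccaccaa
Rpl27a probe A_55_P2065327, chr7:116663505-116664038, plus strand: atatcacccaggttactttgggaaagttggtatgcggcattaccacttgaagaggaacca
Rpl30 probe A_55_P2104941, chr15:34372403-34372462, minus strand: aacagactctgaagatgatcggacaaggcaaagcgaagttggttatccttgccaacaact
Rpl30 probe A_66_P125437, chr15:34372831-34372890, minus strand, bases 16 to 45: gctctggattataatcctctcttctgtcct

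Among the small-subunit genes, 27 of 63 probes (42.9%) fell in knockdown cells with vehicle and 17 of 63 (27.0%) with TGFb, and 0 rose in either. Of all probes 15.5% and 17.2% fell. In the authors' values 5 (7.94%) and 10 (15.9%) of the 63 fell, near the 10.8% and 13.2% of all probes. The largest fall with vehicle was on a probe of Rpsa, whose product sits in the small subunit and is also known as a laminin receptor. Probe A_52_P372165 of Rpsa had log2 values of -0.91, -1.01 and -1.0 in knockdown with TGFb and -1.09, -0.86 and -0.89 in knockdown with vehicle. It had -0.38, -0.47 and -0.60 in control with TGFb and -0.54, -0.41 and -0.39 in control with vehicle. All 6 knockdown arrays lay below all 6 control arrays. The difference was -0.50 ± 0.08 (log2, SE) with vehicle (limma, adjusted p = 0.000561), a fold of 1.41, and -0.49 ± 0.08 with TGFb (adjusted p = 0.000634). The authors' values gave -0.52 and -0.50 (adjusted p = 0.0131 and 0.0153). The brightest Rpsa probe, A_55_P1970700, differed by -0.09 ± 0.11 with vehicle and did not pass the test (adjusted p = 0.64). With vehicle the other 2 Rpsa probes fell, by differences of -0.31 and -0.25, with 75th percentile scaling and did not pass in the authors' values.

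Rps19, a small-subunit protein whose human gene is mutated in Diamond-Blackfan anaemia, had the largest fall with vehicle among genes read by their brightest probe. Its log2 values were 3.24, 3.26 and 3.29 in knockdown with vehicle, against 3.55, 3.59 and 3.6 in control with vehicle, a difference of -0.31 ± 0.05 (adjusted p = 0.0012). With TGFb they were 3.30, 3.1 and 3.32 in knockdown, against 3.62, 3.61 and 3.57 in control, a difference of -0.36 ± 0.05 (adjusted p = 0.000457). The groups did not overlap in either treatment, and the authors' values gave -0.23 and -0.34 (adjusted p = 0.0186 and 0.00163).

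**Figure D4:**
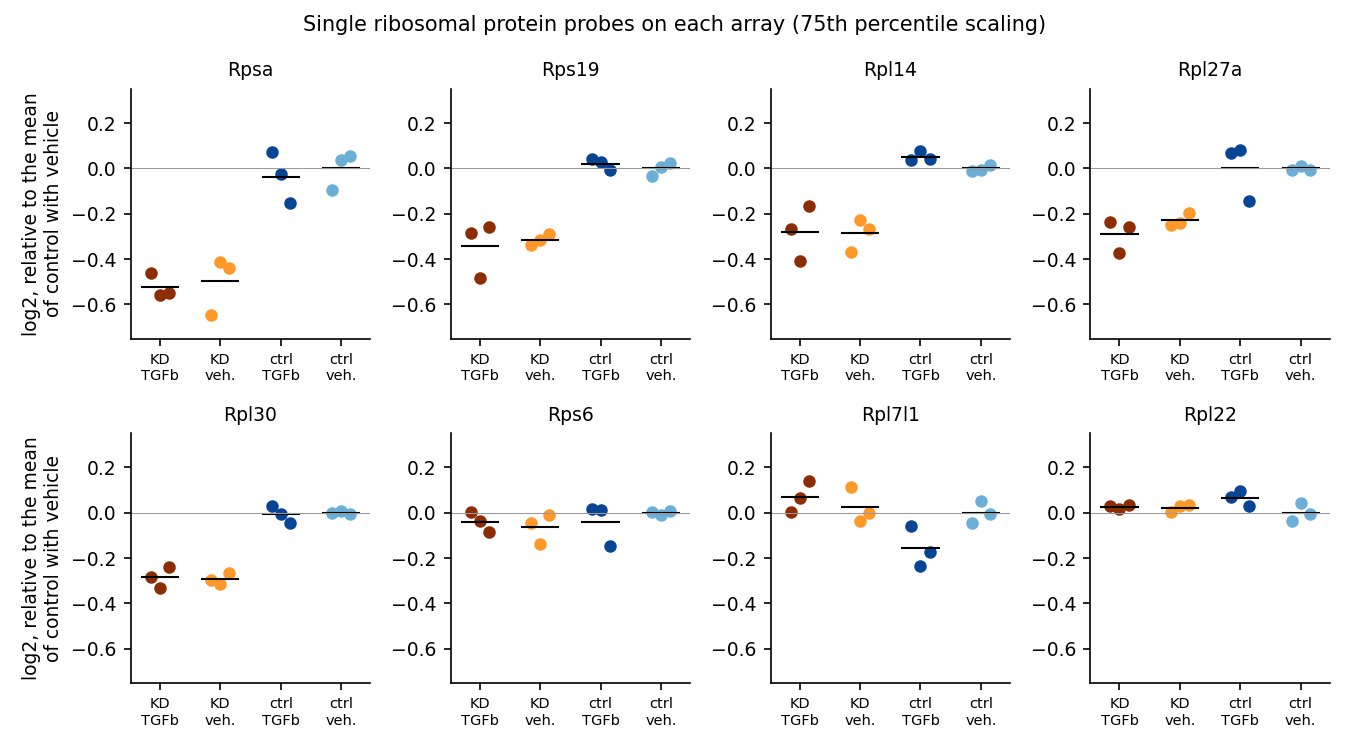
Log2 values of 8 ribosomal protein probes on each array, relative to the mean of control with vehicle, by group (KD, knockdown; ctrl, control; veh., vehicle). Points are arrays and lines are group means (n = 3). Probes are A_52_P372165 of Rpsa, A_55_P2098471 of Rps19, A_51_P232858 of Rpl14, A_55_P2065327 of Rpl27a, A_55_P2104941 of Rpl30, A_55_P1963817 of Rps6, A_52_P343343 of Rpl7l1 and A_52_P391718 of Rpl22. For the first 5 all knockdown arrays lie below all control arrays, while those of Rps6 and Rpl22 overlap with control with vehicle.

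Other small-subunit genes fell on their brightest probe with 75th percentile scaling only. Rps29, a small zinc-binding protein of the small subunit, had 6.19, 6.08 and 6.15 in knockdown with vehicle and 6.45, 6.38 and 6.41 in control with vehicle, a difference of -0.27 ± 0.05 (adjusted p = 0.000916). The authors' values gave -0.11 for it (adjusted p = 0.211), and 1 of the other 2 Rps29 probes passed there (-0.13, adjusted p = 0.0473). All 3 Rps29 probes are placed by the array's annotation on chromosome 2, whereas RefSeq places the gene on chromosome 12. With vehicle Rps15a differed by -0.27 ± 0.08 and Rps27 by -0.26 ± 0.06 (adjusted p = 0.0254 and 0.0069), and by -0.12 and -0.09 in the authors' values (adjusted p = 0.0781 and 0.183). Rps6, which S6 kinases phosphorylate downstream of mTOR, differed by -0.06 ± 0.05 with vehicle on its brightest probe and by 0.00 ± 0.05 with TGFb (adjusted p = 0.455 and 0.986). Its arrays overlapped in both.

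Of the 99 large-subunit probes, 45 (45.5%) fell in knockdown cells with vehicle and 36 (36.4%) with TGFb, and 0 rose with 75th percentile scaling. Of all probes 15.5% and 17.2% fell. In the authors' values 9 and 19 of the 99 fell, against 10.8% and 13.2% of all probes. Rpl30, which lies at the interface of the subunits and in yeast limits splicing of its own transcript, fell on all 3 of its probes in both treatments. Its probe A_55_P2104941 had 4.84, 4.82 and 4.87 in knockdown with vehicle, against 5.13, 5.15 and 5.13 in control with vehicle. The gap between the groups was wider than the range within either, and the difference was -0.29 ± 0.04 (adjusted p = 0.000174). With TGFb it had 4.85, 4.81 and 4.90 in knockdown and 5.17, 5.13 and 5.09 in control, a difference of -0.28 ± 0.04 (adjusted p = 0.000259). The authors' values gave -0.16 and -0.22 (adjusted p = 0.0143 and 0.00234). The brightest Rpl30 probe, A_55_P1952475, differed by -0.29 ± 0.05 with vehicle (adjusted p = 0.000783) and by -0.14 in the authors' values (adjusted p = 0.108).

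Rpl14 had 1.31, 1.45 and 1.41 in knockdown with vehicle, against 1.67, 1.67 and 1.69 in control with vehicle, on probe A_51_P232858. The difference was -0.29 ± 0.06 with vehicle and -0.33 ± 0.06 with TGFb (adjusted p = 0.00361 and 0.0014), and the authors' values gave -0.24 and -0.34 (adjusted p = 0.0268 and 0.00327). The brightest Rpl14 probe, A_55_P2070913, lay closer together between the lines. Its group means were 7.06 in knockdown and 7.23 in control with vehicle, and 7.11 and 7.19 with TGFb. Rpl27a probe A_55_P2065327 differed by -0.23 ± 0.06 with vehicle and by -0.29 ± 0.06 with TGFb (adjusted p = 0.0142 and 0.00352). Rpl5 and Rpl11, which with 5S ribosomal RNA can bind and inhibit Mdm2, differed by -0.12 ± 0.06 and -0.17 ± 0.08 on their brightest probes with vehicle and did not pass the test (adjusted p = 0.192 and 0.136). Rpl13a, known as a component of a translation-silencing complex in human myeloid cells, differed by -0.17 ± 0.06 (adjusted p = 0.0565).

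Of the 5 stalk probes 1 fell in each treatment. The stalk, made of Rplp0 and the acidic proteins Rplp1 and Rplp2, recruits elongation factors. Rplp1 had 5.60, 5.64 and 5.76 in knockdown with vehicle, against 5.88, 5.95 and 5.97 in control with vehicle. Its difference was -0.27 ± 0.07 with vehicle and -0.24 ± 0.07 with TGFb (adjusted p = 0.0112 and 0.0213), but -0.16 and -0.21 in the authors' values (adjusted p = 0.359 and 0.198). Rplp0, widely used as a reference transcript, had 3 probes that differed by -0.17, -0.17 and -0.18 with vehicle, and 0 of them passed the test. Rplp2 differed by -0.19 ± 0.13 (adjusted p = 0.327).

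Paralogs replace a ribosomal protein or resemble one, and 7 of their 10 probes were tested, for 7 of 9 genes. With vehicle 2 of the 7 fell, Rpl22l1 and Rpl36al, by differences of -0.19 ± 0.05 and -0.18 ± 0.06 (adjusted p = 0.0136 and 0.0399). With TGFb these 2 and Rps27l, a p53 target, fell by differences of -0.16, -0.22 and -0.21. Of all probes 15.5% fell with vehicle and 17.2% with TGFb, and counts out of 7 are no result about the paralogs. None of the 7 fell in the authors' values in either treatment (0 probes). Rpl7l1 was the only member that rose with 75th percentile scaling, and it rose with TGFb. Its log2 values were 0.64, 0.70 and 0.78 in knockdown with TGFb, against 0.58, 0.40 and 0.47 in control with TGFb, which do not overlap. The difference was 0.22 ± 0.06 (adjusted p = 0.016) and 0.26 in the authors' values (adjusted p = 0.0303), and with vehicle it was 0.02 ± 0.06 (adjusted p = 0.855). Its parent gene Rpl7 differed by -0.15 ± 0.07 with TGFb on its brightest probe (adjusted p = 0.157). Rps4y2, which RefSeq names Rps4l, differed by 0.03 ± 0.10 with vehicle, and Rps4x by -0.16 ± 0.05 (adjusted p = 0.887 and 0.0423). The heart and muscle paralog Rpl3l was well above background on 1 of 3 knockdown arrays with vehicle and on all arrays of the other groups. Its SE was 0.33. Rps19bp1 differed by -0.12 ± 0.10 with vehicle (adjusted p = 0.448).

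With TGFb present in both lines, the ribosomal protein probes were again lower in knockdown cells, with more scatter. The median over the 175 probes was 5.76, 5.75 and 5.73 on knockdown arrays, against 5.87, 5.87 and 5.76 on control arrays, and the third control array lay at the level of the knockdown arrays. Of the 175 probes 57 fell and 1 rose, against 17.2% and 12.2% of all probes, and the median difference was -0.14, against -0.02 over all probes. In the authors' values 29 fell and 2 rose, against 13.2% and 10.3% of all probes, with a median of -0.07. The 2 that rose there were Rpl7l1 and 1 probe of Rpl11 (0.17, adjusted p = 0.0443). Without the third control array with TGFb the median was -0.19 with 75th percentile scaling. Within slide 3 it was -0.12 and within slide 4 -0.04, and in the authors' values -0.06 on both slides. With slide as a block the median was -0.10. Marker sums differed in this comparison too, at 3.37 to 3.54 in knockdown and 3.25 to 3.32 in control for the neuron list, and at 8.0 to 8.11 and 7.84 to 7.99 for the neural stem cell list. The oligodendrocyte lineage list had 3.1 to 3.23 in knockdown and 2.99 to 3.1 in control, the opposite order to that with vehicle. Their part in the result was not tested.

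The genes with the largest falls by their brightest probe were, after Rps19, Rpl19, Rpl28, Rps25, Rpl30 and Rps26. Rpl19 had 6.10, 5.87 and 5.88 in knockdown with TGFb, against 6.41, 6.39 and 6.12 in control with TGFb, a difference of -0.36 ± 0.09 (adjusted p = 0.0134). Rps26 differed by -0.26 ± 0.07 (adjusted p = 0.0205), and both genes also fell in the authors' values (adjusted p = 0.0111 and 0.0276). Rpl28 and Rps25 each differed by -0.28 and did not pass in the authors' values (adjusted p = 0.059 and 0.0625). The Rpl28 arrays overlapped. The largest fall of any member was on probe A_55_P2025173 of Rps27a, which is translated as a fusion with ubiquitin. It differed by -0.54 ± 0.15 (adjusted p = 0.017), a fold of 1.46, and by -0.39 in the authors' values (adjusted p = 0.012). This probe is dim, with a mean of -5.12 (log2) in knockdown with TGFb, against 6.73 on the brightest Rps27a probe, A_55_P1976108. That brightest probe differed by -0.24 ± 0.08 (adjusted p = 0.0404), and probe A_55_P2025174 by 0.05 ± 0.10 (adjusted p = 0.753).

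The knockdown comparisons with and without TGFb share no arrays. Of the probes that fell, 47 were the same in both, which is 62.7% of the 75 with vehicle and 82.5% of the 57 with TGFb. Over all probes the same shares were 77.2% and 69.3%. Of the members 26.9% fell in both, against 12% of all probes.

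**Figure D5:**
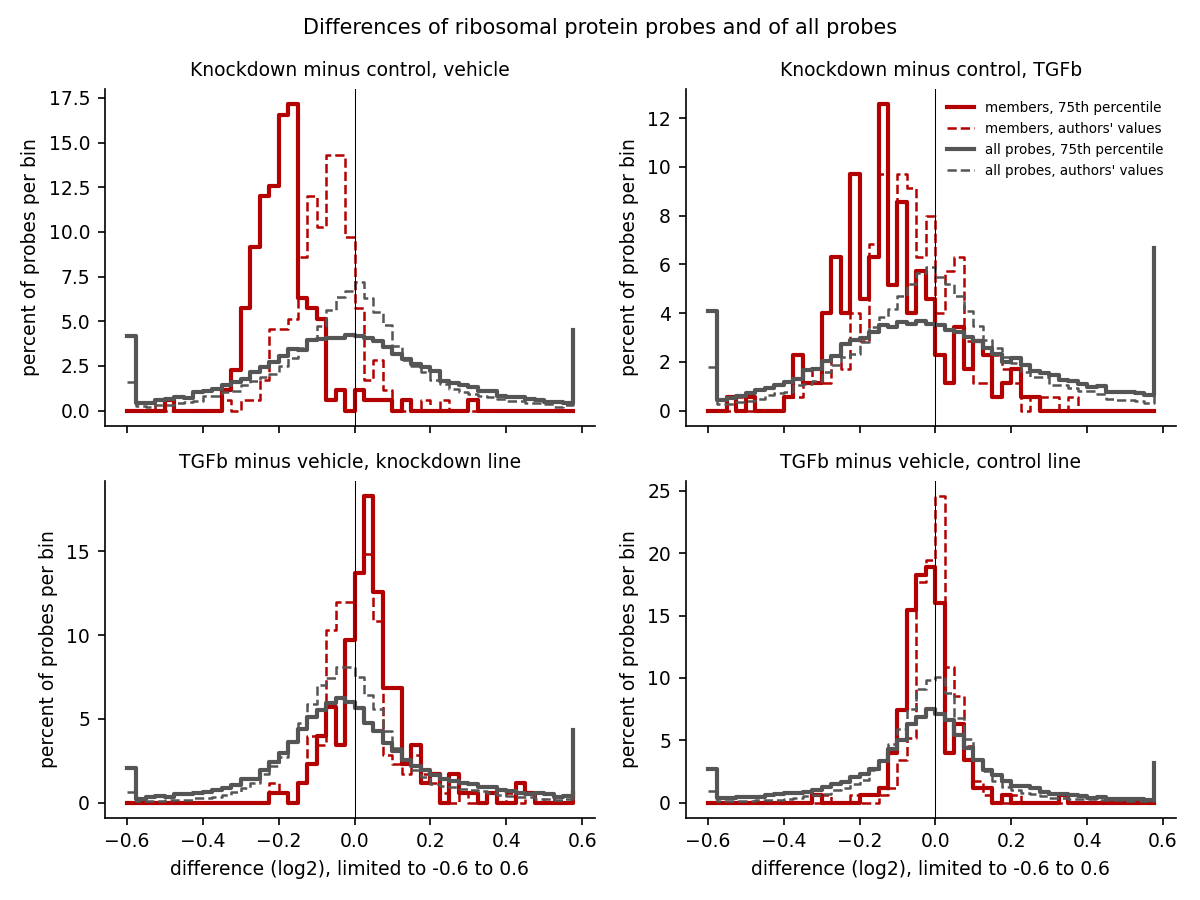
Distribution of log2 differences of the 175 ribosomal protein probes (red) and of all 29972 probes (grey), with 75th percentile scaling (solid) and in the authors' values (dashed), in 4 comparisons. Values beyond the axis are collected in the end bins. The red solid curve is centred at -0.19 and -0.14 in the knockdown comparisons, and at 0.04 and -0.02 in the TGFb comparisons.

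TGFb within a line left the ribosomal protein probes near their level with vehicle after 2.5 h. In knockdown cells 0 of 175 probes were called by limma, against 9.13% of all probes, and 8 had an unadjusted p under 0.05, against 19.9%. The median difference was 0.04, against -0.02 over all probes. In control cells 0 were called, against 9.93% of all probes, and 2 had an unadjusted p under 0.05, against 19%, at a median of -0.02, against -0.01. The authors' values also gave 0 calls in knockdown and control cells, against 6.79% and 7.56% of all probes, with medians of 0.0078 and 0.0024. There 5 and 1 had an unadjusted p under 0.05, against 18.3% and 16.5% of all probes. Bright probes were seldom called lower. Of the other 1360 probes of the brightest twentieth, which holds 139 members, 0.51% were called lower in knockdown and 0.96% in control cells. The authors' values gave 0.74% and 0.59% for these other probes. For the 139 bright members, 0 calls lower are therefore no particular trait. Probes called higher were not counted in that twentieth, so these shares do not cover calls in that direction. With estimated array weights 9 members were called in knockdown and 3 in control cells, where 22.2% and 13.4% of all probes were. With slide as a block 3 and 1 were called, where 7.79% and 12% of all probes were. Within slides, the median was 0.00 in knockdown cells on slide 3 (0.0038), and 0.05 and -0.01 in control cells on slides 2 and 3.

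The response to TGFb was not shown to differ between the lines for any single member. By the test of that difference 0 of 175 probes were called, against 0.0734% of all probes, and 13 had an unadjusted p under 0.05, against 5.03%. The authors' values gave 0 calls, against 0.0534%, and 3 had an unadjusted p under 0.05, against 5.3%. The median difference of responses was 0.06, against -0.0073 over all probes, and 0.006 in the authors' values.

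Probes of 1 gene did not always move together. Of the 54 genes with more than 1 tested probe, all probes fell with vehicle in 10, some in 28 and none in 16. Over the 145 pairs of probes of 1 gene the median gap between their differences with vehicle was 0.05. In the 5 pairs that share at least 40 bases it was 0.06, and in the 16 that share at least 15 bases 0.04, with a largest gap of 0.33. In a knockdown comparison Rpl6, Rpl17, Rpl22, Rpl23, Rpl31, Rps12, Rps25 and Rps27a were among the genes with probes of opposite sign, of which at least 1 fell. Probes of Rps25, Rps27a and Rpl22 are shown to let the stretches be compared. Capitals again mark AATAAA.
Rps25 probe A_55_P2137186, chr9:44216951-44218094, plus strand: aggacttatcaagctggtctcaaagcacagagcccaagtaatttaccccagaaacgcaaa
Rps25 probe A_52_P436318, chr9:44218247-44218306, plus strand, bases 1 to 30: ttggaaaAATAAAactttattgaatcaaat
Rps27a probe A_55_P1976108, chr11:29445914-29445973, minus strand: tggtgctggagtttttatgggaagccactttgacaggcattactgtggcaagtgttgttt
Rps27a probe A_55_P2025173, chr11:29447939-29447998, minus strand, bases 16 to 45: acgagcaaatctggcactgcgttagacagc
Rps27a probe A_55_P2025174, chr11:29445842-29445901, minus strand, bases 24 to 53: tgtgtatgcgttAATAAAaagaaggaactc
Rpl22 probe A_55_P2015989, chr4:151706515-151706574, plus strand, bases 16 to 45: ttaggacacattggtctgcaatgttttgta
Rpl22 probe A_52_P391718, chr4:151708012-151708071, plus strand, bases 16 to 45: aaccctgggttgattagcatatgcttctaa
With TGFb, Rps27a probes differed by -0.54, -0.24 and 0.05 in the order A_55_P2025173, A_55_P1976108 and A_55_P2025174. Rps25 probe A_55_P2137186 differed by -0.28 ± 0.06 and A_52_P436318 by 0.10 ± 0.08. Rpl22, the large-subunit protein that binds Epstein-Barr virus RNA in human cells, differed with vehicle by -0.21 ± 0.04 on probe A_55_P2015989 (adjusted p = 0.0041) and by 0.02 ± 0.04 on A_52_P391718 (adjusted p = 0.78).

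The letters AATAAA were present in 46 of the 175 probes, of 37 genes. With TGFb these 46 had a median difference between knockdown and control of -0.04 and 4 of them fell, against -0.16 and 53 of the 129 without the letters. With vehicle the medians were -0.18 and -0.20, and 14 and 61 probes fell. Of all probes 17.2% fell with TGFb and 15.5% with vehicle. In the authors' values the medians were 0.016 and -0.0939 with TGFb, and -0.048 and -0.0877 with vehicle. Probes of other genes were not split by these letters. The GC content of a probe moved with the difference as well. Across the 175 probes, which share the same arrays and in part a transcript, Spearman's rho between GC content and the difference was -0.44 with TGFb and -0.23 with vehicle, and -0.49 for the TGFb difference in knockdown cells. It was -0.23, -0.14 and -0.32 across the other probes of the brightest twentieth. The array's annotation placed 9 probes on another chromosome than the one RefSeq gives for their gene, those of Rpl12 (2 probes), Rpl13, Rpl31, Rpl36, Rps29 (3 probes) and Rps4x.

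Genes that work with the ribosomal proteins were read from lists of named genes, to be set against the 15.5% of all probes that fell and 12.8% that rose with vehicle, and the 17.2% and 12.2% with TGFb. Of 39 probes for 21 genes of other ribosome components, translation factors and further TOP mRNAs, 11 fell and 0 rose in knockdown cells with vehicle, and 9 fell and 0 rose with TGFb. There were 0 and 3 that fell in the authors' values. Eef1g, a subunit of an elongation factor, differed by -0.29 ± 0.09 with vehicle and -0.37 ± 0.09 with TGFb on 1 probe (adjusted p = 0.0363 and 0.0117). Of 54 probes for 40 genes of ribosome biogenesis, which make and process ribosomal RNA and assemble subunits, 22 fell and 1 rose with vehicle, and 21 fell and 0 rose with TGFb. The authors' values gave 16 and 18 that fell, and medians of -0.16 and -0.15, against -0.16 and -0.18 with 75th percentile scaling. Rrp12, which in yeast is needed for the export of ribosomal subunits, differed by -0.40 ± 0.09 and -0.50 ± 0.09 (adjusted p = 0.0082 and 0.0022), and Nop2, which methylates ribosomal RNA, by -0.35 ± 0.05 and -0.41 ± 0.05 (adjusted p = 0.000398 and 0.000123).

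Of 95 probes for 75 mitochondrial ribosomal protein genes, which belong to the other ribosome of the cell, 13 fell and 9 rose with vehicle, and 22 fell and 11 rose with TGFb. Their median differences were -0.05 and -0.09. The authors' values gave 3 that fell and 10 that rose with vehicle, and 10 and 7 with TGFb. Of 15 tested probes for 11 regulator genes, 5 fell and 3 rose in knockdown cells with vehicle, and 5 fell and 3 rose with TGFb. For the regulators the authors' values gave 4 that fell and 3 that rose with vehicle, and 3 and 3 with TGFb. Among regulators, Myc, a transcription factor that drives ribosome production, differed by -1.40 ± 0.09 with TGFb in knockdown cells and by -1.83 ± 0.09 in control cells (adjusted p = 1.15e-06 and 1.06e-07), and by -0.43 ± 0.09 in knockdown against control with vehicle (adjusted p = 0.00425). With TGFb that last difference was 0.01 ± 0.09 (adjusted p = 0.971). Mxd1, which competes with Myc for Max, rose on both probes in all 4 comparisons, by 1.28 ± 0.10 on probe A_51_P490795 in knockdown against control with vehicle (adjusted p = 3.48e-06). In the same cells Rps6kb1, an S6 kinase, differed by -0.24 ± 0.04 on its brightest probe (adjusted p = 0.000954), and Rptor, a subunit of the mTOR complex, by 0.32 ± 0.07 (adjusted p = 0.00377).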

How the data were processed

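Mouse 1-colour Agilent arrays of 12 samples were analysed. Agilent Feature Extraction 10.7.3.1 read the scans, per the file headers, with annotation on mm9. The deposited scanner files give the background-corrected intensity of each spot, per the file headers. The authors' deposited table holds log2 values, whose scale and direction follow from a match of each of its 12 columns to its own array. Its 12 columns share a median of 7.93, and its background correction and any centring are unknown (not given in the sources used here). It has 823 empty entries.

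Control spots and outlier spots were left out and spots of 1 probe averaged. From each log2 signal the 75th percentile of its array was subtracted. The 29972 of 39429 probes that some group read well above background on each of its 3 arrays were kept. A single linear model over the 12 arrays was fitted in R 4.3.3 with limma 3.58.1 (lmFit, contrasts.fit, eBayes with a trend), two-sided, with Benjamini-Hochberg adjustment over all 29972 probes and a threshold of 0.05. It had 8 residual and 3.15 prior degrees of freedom, and the fit was tested on simulated data. The authors' values went through the same fit.

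The rule named Kdm6b, for each comparison at most 6 called genes from either end of the list ranked by difference (brightest probe of each gene), selected members and paralogs, genes whose probes disagree, and up to 3 genes of each related list. Of the regulators 4 genes are given, beyond that limit. The members and lists were chosen with earlier results of these data known. Samples of the same number were not treated as pairs. Deviations from group means correlated between -0.543 and 0.579 over 18 such pairs, and 4 were over 0.1. Between knockdown and control with vehicle, arrays of the same number correlated at 0.489, 0.579 and 0.243. They also share a slide, so pairing and slide cannot be told apart there. Arrays lay on 4 slides, and the 12 pairs that share one correlated at 0.211 to 0.579. Promoters and gene names came from RefSeq (GRCm38.p6), which matched 171 of the 178 probes, and Rps3a is Rps3a1 there. Alternatives covered background correction, normalization, filters, probe choice, prior, weights, slide and replicate blocks, samples and thresholds. Some results on single members are not reported here.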

Additional observations from a re-analysis of the deposited data

Results flagged for a closer look

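Of the 175 ribosomal protein probes, 2 stood out because all TGFb arrays lay above all vehicle arrays in knockdown cells and below all vehicle arrays in control cells. For Rpl24 (probe A_55_P1956938) the difference of the 2 responses was 0.19 ± 0.07 (log2, SE), and for Rps16 (probe A_55_P1963061) it was 0.18 ± 0.07. The authors' values gave 0.04 ± 0.07 and 0.06 ± 0.06. Neither passed limma's test of that difference across all probes (adjusted p = 0.802 and 0.964). The other Rpl24 probe gave 0.10 and the other Rps16 probes 0.06 and 0.07.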

How the results depend on the processing

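The medians of the members kept their sign in both knockdown comparisons under all alternatives run, and 0 members were called for the difference of responses under any of them. With vehicle the count of 75 called became 33 at an adjusted p under 0.01, 0 for changes of at least 1.5-fold, 20 with quantile normalization, 10 with scaling to the array median, 14 in the authors' values, 32 with 1 probe a gene (fewer probes tested) and 126 with slide as a block. With TGFb the count of 58 became 29 under 0.01, 0 at 1.5-fold, 21 with array median scaling, 31 in the authors' values, 24 with 1 probe a gene, 98 with array weights and 37 with only the groups compared. Of all probes 28.3% were called with vehicle, 26.0% with quantile normalization and 18.4% with array median scaling. That share was 21.5% in the authors' values, 27.8% with 1 probe a gene and 38.8% with slide as a block. With TGFb 29.4% of all probes were called, and 20.5% with array median scaling. There it was 23.5% in the authors' values, 29.0% with 1 probe a gene, 44.9% with array weights and 22.7% with only the groups compared. For TGFb in knockdown and control cells the count of 0 became 9 and 3 with array weights, and 3 and 1 with slide as a block. Median differences moved to -0.074 and -0.0685 (vehicle and TGFb) with quantile normalization and to -0.0738 and -0.0678 in the authors' values, and for the difference of responses to -0.0064 and 0.006. Within slides they moved to -0.24 (vehicle, slide 2), -0.0417 (TGFb, slide 4) and 0.0457 (TGFb in control cells, slide 2). Leaving out 1 array gave 42 to 99 calls with vehicle (42 without the second knockdown array, 43 without the third control array) and 32 to 87 with TGFb. Of all probes 23.5% and 21.7% were called with vehicle in the latter 2 fits. With TGFb it was 32 and 37 without the second and first control arrays, and 37 without the second knockdown array. There 22.5%, 26.8% and 23.5% of all probes were called. For TGFb in knockdown cells leaving out 1 array gave 0 to 1. It gave medians of -0.1912 to -0.0935 with TGFb and 0.0037 to 0.0825 for the difference of responses. The replicate block gave 61 and 51 calls with unchanged medians, where 24.7% and 25.9% of all probes were called. Rps6 with vehicle turned to 0.0913 (limma, adjusted p = 0.0473) under quantile normalization. The cause of these changes was not tested, except where fewer probes or samples were used. Of 3553 values of single probes under alternatives, 3336 kept their direction and side of the threshold, 181 lost it and 35 gained it. Probes of Rpsa (A_52_P372165), Rps19 and Rpl30 (A_55_P2104941) passed in both knockdown comparisons under each alternative fit at that threshold (23, and 24 for Rps19). Signal over background limits Rpl3l.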

Other observations

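A few ribosomal protein probes varied within groups along the slides. Probe A_52_P740562 of Rps21 had log2 values between 4.20 and 4.52 on all arrays of slides 1 and 4, and between 3.24 and 3.93 on all arrays of slides 2 and 3. Its values were 3.58, 4.49 and 4.39 in knockdown with TGFb, and 4.52, 3.69 and 3.79 in control with vehicle. Probe A_55_P2057519 of Rpl17 ran the same way. Arrays of 1 group lay on several slides, and the cause was not tested.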
